A study of Mus musculus with 10 samples.

Results

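The pyruvate dehydrogenase complex is described here through 10 genes in the gastrocnemius muscle of smoke-exposed mice. They are *Pdha1*, *Pdhb*, *Dlat*, *Dld* and *Pdhx*, which encode its core subunits, the kinase genes *Pdk1*, *Pdk2*, *Pdk3* and *Pdk4*, and the phosphatase gene *Pdp1*. The genes were chosen by name, and all 10 were found by Ensembl identifier among the 49315 genes of the count table. All 10 passed the filter on low counts, which kept 14714 genes. No difference in the mRNA level of any of them between muscle with and without AHR was detected, and the SD of log2 CPM between mice of a genotype was the highest of the 10 for *Pdk4*.

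The complex sits in the mitochondrial matrix and converts pyruvate to acetyl-CoA, the step that commits carbon from glucose to the tricarboxylic acid cycle. Pyruvate dehydrogenase kinases phosphorylate the E1 alpha subunit and switch the complex off, and pyruvate dehydrogenase phosphatases remove the phosphate and switch it on. In skeletal muscle *Pdk4* is known to rise in fasting and whenever fatty acids are the main fuel, through PPAR and FOXO transcription factors, whereas *Pdk1* is known as a target of the hypoxia factor HIF-1. Activity of the complex depends on this phosphorylation, which mRNA levels do not show.

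Poly(A) RNA of gastrocnemius was sequenced from 10 male mice on the C57BL6J background, 5 AHR-floxed mice (AHRfl, mice 11, 12, 13, 15 and 33) and 5 muscle-specific AHR knockout mice (AHRmKO, mice 8, 9, 19, 22 and 34). AHR, the aryl hydrocarbon receptor, is a transcription factor activated by components of tobacco smoke. The knockout mice carried the floxed allele and HSA-MCM, a tamoxifen-inducible Cre recombinase driven by the human ACTA1 promoter, which is active in myofibres, so other cells of the muscle kept an intact gene. The labels call the floxed mice wild type, and the methods name tamoxifen for the knockout mice, while the study times the smoke of both genotypes from tamoxifen delivery without saying outright that the floxed mice received it. All 10 mice, of both genotypes, were exposed to the smoke of 3R4F cigarettes for 16 weeks, for 1 h 2 times per day on 5 days per week, at 220 ± 80 mg/m3, starting 4 weeks after tamoxifen by the labels (the main methods give a shorter interval). Muscle was taken 72 h after the last exposure by the labels (a range that starts earlier is given elsewhere), none of the libraries is from an air-exposed mouse, and the mice are called aged, with no age given. For other assays the red part of the gastrocnemius was dissected away, and the sources do not say which part of the muscle gave the RNA. The comparison asks whether genes of mitochondrial energy metabolism respond to loss of AHR in muscle under smoke. Each mouse was taken as 1 replicate, and the p-values measure the spread between these animals.

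Total counts per library were between 30393035 and 37954388, and values below are CPM, which are counts divided by the library size after TMM normalization, unless a sentence says otherwise. A floor of 3 counts, below which nothing was read as signal, equals 0.079 to 0.0987 CPM. *Ahr* itself had between 43 and 110 counts in AHRfl and between 31 and 80 in AHRmKO mice, with a log2 fold change of -0.35 (95% interval -0.90 to 0.20, adjusted p = 0.844, edgeR). Without AHRfl 11 it was -0.13 and without AHRmKO 34 -0.21. These counts sum all exons of *Ahr*, most of them outside the floxed one, so they do not check the deletion. All 6 skeletal myofibre markers were detected in every library, at a summed level between 54350 and 67252 CPM. The summed level of the 7 slow fibre markers differed far more between mice, from 65.8 to 1754 CPM in AHRfl and from 226 to 2112 CPM in AHRmKO, and whether the part of muscle sampled moves with it was not tested. The 8 fast fibre markers summed to between 118655 and 165391 CPM in AHRfl and to between 132561 and 165794 CPM in AHRmKO. In 5 libraries (AHRfl 11, 15 and 33, AHRmKO 9 and 22) between 44 and 75 counts of *Xist*, which female cells express, stood against 0 to 3 in the others, although all 10 libraries held between 1852 and 2723 counts of the Y-linked *Ddx3y*. Member values with the slow fibre level or the presence of *Xist* as a covariate are given with the other settings.

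The member genes lie on 7 autosomes and the X chromosome. In GRCm38 coordinates of GENCODE M21, *Pdha1* (ENSMUSG00000031299) is at chrX:160122209-160138413 on the minus strand with 11 exons in its longest coding transcript. *Pdhb* (ENSMUSG00000021748) is at chr14:8165996-8173025, *Dlat* (ENSMUSG00000000168) at chr9:50634633-50659780, *Dld* (ENSMUSG00000020664) at chr12:31331277-31351453 and *Pdhx* (ENSMUSG00000010914) at chr2:103021075-103073513, all on the minus strand. Of the kinases, *Pdk1* (ENSMUSG00000006494) is on the plus strand at chr2:71873224-71903858. The other kinases are on minus strands, *Pdk2* (ENSMUSG00000038967) at chr11:95026258-95041354, *Pdk3* (ENSMUSG00000035232) at chrX:93764607-93832201 and *Pdk4* (ENSMUSG00000019577) at chr6:5483351-5496309. *Pdp1* (ENSMUSG00000049225) is at chr4:11958184-11966452 on the minus strand. *Pdha1* is the one member whose exons overlap another gene, *Map3k15* on the opposite strand, over 603 bases or 16.1% of its exon length. *Map3k15* was given 472 counts over the 10 libraries and *Pdha1* 225349, and the methods tie counting by strand to a stranded preparation, which they do not state for these libraries.

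Because the knockout removes a DNA-binding factor, the sequence just before the start of 3 members is shown, that of *Pdk4*, which had the highest SD of log2 CPM within genotypes among the members, that of *Pdk2*, which had the lowest, and that of *Pdha1*, the E1 alpha gene. Each is printed 5′ to 3′ on the strand of the gene from the RefSeq promoter table of GRCm38.p6, and capitals mark GCGTG or its reverse complement CACGC, the core letters of the AHR response element.
Pdk4, chr6:5496310-5496528, minus strand: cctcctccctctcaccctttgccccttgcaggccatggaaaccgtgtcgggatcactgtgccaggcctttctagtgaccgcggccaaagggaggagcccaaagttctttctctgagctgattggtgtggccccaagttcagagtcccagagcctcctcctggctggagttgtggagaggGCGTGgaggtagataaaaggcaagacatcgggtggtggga
Pdk2, chr11:95041372-95041621, minus strand: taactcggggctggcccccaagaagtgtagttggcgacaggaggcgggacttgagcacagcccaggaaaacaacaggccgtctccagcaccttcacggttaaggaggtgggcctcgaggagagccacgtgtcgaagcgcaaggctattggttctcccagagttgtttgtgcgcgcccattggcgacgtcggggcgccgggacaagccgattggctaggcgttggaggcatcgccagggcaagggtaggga
Pdha1, chrX:160138431-160138680, minus strand: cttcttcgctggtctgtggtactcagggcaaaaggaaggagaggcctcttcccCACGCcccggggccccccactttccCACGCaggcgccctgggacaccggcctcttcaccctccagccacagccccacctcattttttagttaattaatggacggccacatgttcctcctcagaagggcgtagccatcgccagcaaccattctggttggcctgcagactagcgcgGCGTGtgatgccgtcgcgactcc

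The 250 bases before the start of *Pdk4* hold these letters at 1 place, those of *Pdha1* at 3 and those of *Pdk2* at none. For *Pdk4* the 31 bases nearest the RefSeq start are left out above, since GENCODE places them in the first exon. A start was listed for 9 members. Of these, 6 hold GCGTG on either strand (*Pdha1*, *Pdhb*, *Pdhx*, *Pdk1*, *Pdk3* and *Pdk4*), against 28.2% of the 32851 promoters of the table. The HIF core is CGTG after A or G. Its form ACGTG is in 3 (*Pdhb*, *Pdk2* and *Pdk3*), against 16.6% of all. Its other form, GCGTG, has the same letters as the AHR core, so the places counted above, that of *Pdk1* among them, match either core. The FOXO letters GTAAACA (3.17% of all promoters) and the nuclear receptor letters AGGTCA (14.0%) are in none of the 9 windows. The windows printed are rich in G and C, at 58.8% for *Pdk4*, 62.4% for *Pdk2* and 61.6% for *Pdha1* over the 250 bases, against a median of 52.4% over all promoters. Matches of this kind are letters in a window and do not show binding.

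In the comparison of genotypes, no member passed the test. By edgeR's quasi-likelihood test, 0 of 10 had an adjusted p under 0.05 and 0 of 10 an unadjusted p under 0.05, and the lowest adjusted p was 0.868, for *Dlat*. Over all genes, 1 of 14714 had an adjusted p under 0.05 (0.0068%) and 972 an unadjusted p under 0.05 (6.61%), of which 475 were higher (3.23%) and 497 lower (3.38%) in AHRmKO. DESeq2's Wald test gave an adjusted p to 9 of the members and called none of them, against 21 of 10858 genes (0.193%), and by DESeq2 and limma-voom alike 0 of 10 had an unadjusted p under 0.05. In every member the values of the genotypes overlapped, and over all genes 206 did not overlap (1.4%). The median log2 fold change of the members was -0.01, with 4 higher and 6 lower, beside 0.01 over all genes tested. In bulk muscle RNA, fewer cells of a type and less RNA per cell cannot be told apart.

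**Figure D1:**
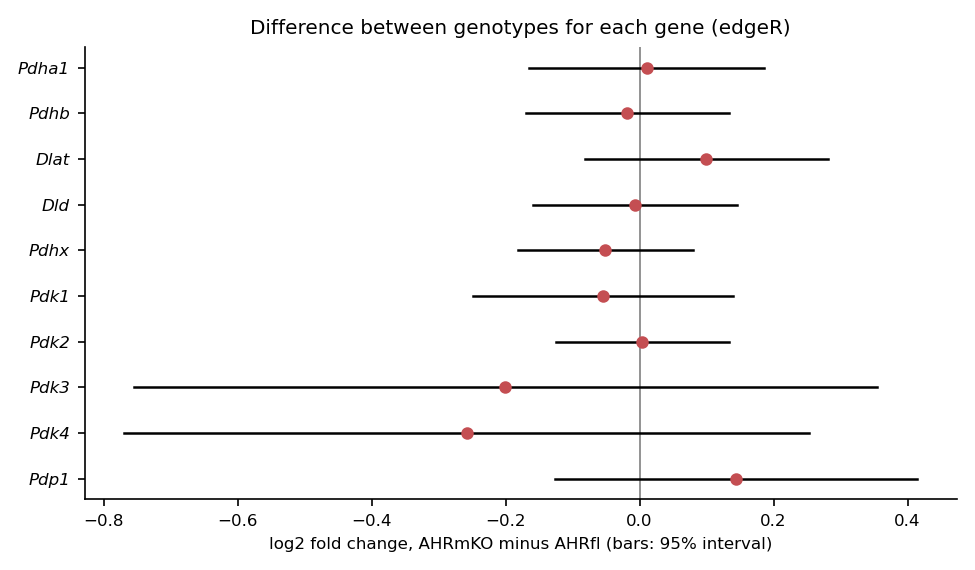
The horizontal axis gives the log2 fold change of each gene, AHRmKO minus AHRfl (n = 5 per genotype), and bars are 95% intervals from edgeR. All 10 intervals include 0, and those of *Pdk4* and *Pdk3* are the widest, from -0.77 to 0.25 and from -0.75 to 0.35.

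The E1 component, a tetramer of alpha and beta subunits that decarboxylates pyruvate, is encoded by *Pdha1* and *Pdhb*. *Pdha1* stood at 645, 560.1, 625.1, 694 and 641 CPM in AHRfl mice 11, 12, 13, 15 and 33 and at 713, 676, 624.7, 619.9 and 555 CPM in AHRmKO mice 8, 9, 19, 22 and 34. The lowest mouse of each genotype, AHRfl 12 and AHRmKO 34, reached nearly the same level. The means were 633 ± 48.3 and 638 ± 59.8 CPM (SD, n = 5), with a log2 fold change of 0.01 (95% interval -0.17 to 0.19, adjusted p = 0.993). *Pdhb* was steadier in AHRfl mice, between 315 and 342 CPM, than in AHRmKO mice, between 284 and 363 CPM, and both the lowest and the highest mouse were AHRmKO. Its means were 328 ± 9.86 and 324 ± 29.2 CPM (SD, n = 5), with a log2 fold change of -0.02 (-0.17 to 0.13, adjusted p = 0.980). The difference in spread was not tested.

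*Dlat* encodes E2, the dihydrolipoyl transacetylase that forms the core of the particle, and it had the lowest p among the 10 by edgeR, though not by DESeq2, limma-voom or the exact permutation test, which put *Pdk4* first. It stood at 227, 184, 224, 243 and 224 CPM in AHRfl mice 11, 12, 13, 15 and 33. In AHRmKO mice 8, 9, 19 and 22 it stood at 249, 247, 245 and 239 CPM, and mouse 34 lay apart at 201 CPM. The genotypes overlapped through AHRmKO 34 and AHRfl 15. The means were 220.2 ± 21.9 and 236 ± 19.9 CPM (SD, n = 5), a log2 fold change of 0.10 (-0.08 to 0.28, adjusted p = 0.868, edgeR, two-sided exact permutation p = 0.357). The single mice AHRfl 12 and AHRmKO 34 set much of this value. It was 0.04 without AHRfl 12 and 0.15 without AHRmKO 34 (adjusted p = 0.963 and 0.680).

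*Dld* encodes E3, the dihydrolipoyl dehydrogenase that the complex shares with the 2-oxoglutarate and branched-chain dehydrogenases, and *Pdhx* the protein that tethers E3 to the core. *Dld* was between 249 and 272 CPM in AHRfl and between 225 and 281 CPM in AHRmKO mice, with a log2 fold change of -0.01 (-0.16 to 0.15, adjusted p = 0.994). AHRmKO 34 was again the lowest mouse. *Pdhx* was between 68.7 and 75.4 CPM in AHRfl and between 63.0 and 72.2 CPM in AHRmKO mice, with a log2 fold change of -0.05 (-0.18 to 0.08, adjusted p = 0.917). For the 5 core genes together, the 95% intervals ran from -0.18 (*Pdhx*) to 0.28 (*Dlat*), and their median log2 fold change was -0.01.

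**Figure D2:**
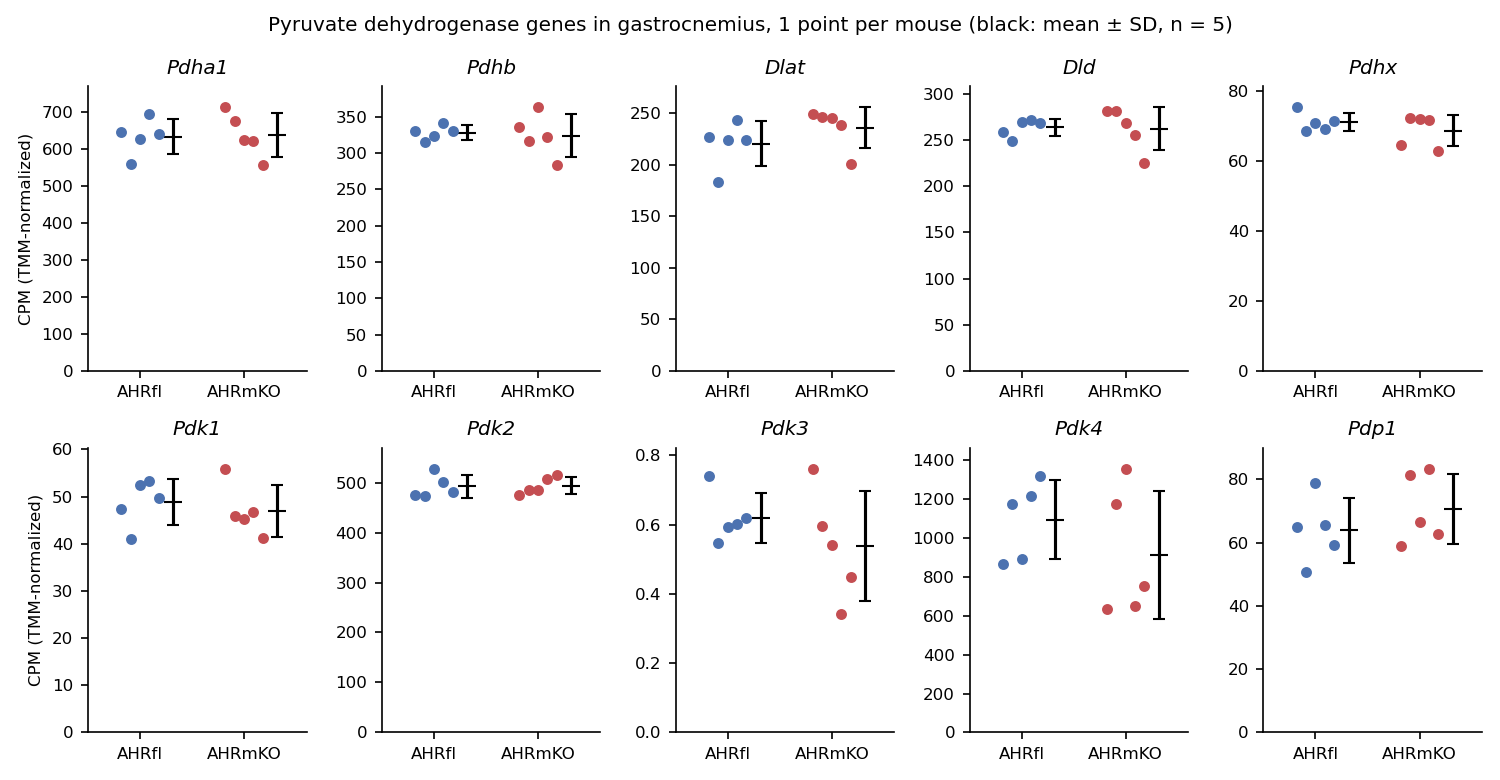
Each panel is 1 gene, the vertical axis is CPM from 0, each point is 1 mouse (AHRfl left in blue, AHRmKO right in red, mice in order of number), and black marks are mean ± SD (n = 5). The genotypes overlap in all 10 panels, *Pdk4* spreads from 636 to 1356 CPM, and *Pdk2* stays between 474 and 528 CPM.

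*Pdk4*, the kinase gene tied to fasting and lipid use, had the largest fitted difference of the members and also the highest SD of log2 CPM within genotypes. AHRfl mice 11, 12, 13, 15 and 33 stood at 866, 1176, 889, 1217 and 1318 CPM. AHRmKO mice 8, 9, 19, 22 and 34 stood at 636, 1172, 1356, 652 and 755 CPM. Of the AHRmKO mice, 3 were below every AHRfl mouse, while mouse 19 was the highest of all 10 and mouse 9 lay within the AHRfl range. The means were 1093 ± 203 CPM in AHRfl and 914 ± 329 CPM in AHRmKO (SD, n = 5), a log2 fold change of -0.26 (standard error 0.23, 95% interval -0.77 to 0.25, adjusted p = 0.882, edgeR, two-sided exact permutation p = 0.238). As a ratio of AHRmKO to AHRfl this is 0.836, with an interval from 0.587 to 1.19. The value rested on few mice, being -0.44 without AHRmKO 19, -0.15 without AHRmKO 8 and -0.16 without AHRmKO 22. Counts were between 24221 and 47513 per library, so counting error is small beside the spread between mice.

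*Pdk2*, the most widely expressed of the kinases, was nearly constant. It was 476, 474, 528, 501 and 482 CPM in AHRfl mice 11, 12, 13, 15 and 33 and 476, 485, 485, 506 and 516 CPM in AHRmKO mice 8, 9, 19, 22 and 34. The highest mouse was 1.11 times the lowest. Between genotypes it differed by a log2 fold change of 0.00427 (95% interval -0.13 to 0.13, adjusted p = 0.995, edgeR), which as a ratio leaves room for values between 0.917 and 1.10.

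*Pdk1*, the HIF-1 target, was a minor kinase. It was 47.4, 41.0, 52.4, 53.3 and 49.7 CPM in AHRfl mice 11, 12, 13, 15 and 33 and 55.9, 45.9, 45.2, 46.6 and 41.1 CPM in AHRmKO mice 8, 9, 19, 22 and 34. AHRfl 12 and AHRmKO 34 were the lowest of their genotypes, as for *Pdha1* and *Dlat*. The means were 48.7 ± 4.88 and 47.0 ± 5.44 CPM (SD, n = 5), a log2 fold change of -0.05 (-0.25 to 0.14, adjusted p = 0.949). *Pdk3*, a kinase gene known from testis and brain, had only 19 to 26 counts in AHRfl and 13 to 29 in AHRmKO libraries. That is 0.548 to 0.739 CPM and 0.342 to 0.762 CPM, above the floor of 3 counts, and its interval was wide (log2 fold change -0.20, from -0.75 to 0.35, adjusted p = 0.923).

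*Pdp1*, the calcium-activated phosphatase of muscle that opposes the kinases, was 65.0, 50.8, 78.9, 65.7 and 59.2 CPM in AHRfl mice 11, 12, 13, 15 and 33. In AHRmKO mice 8, 9, 19, 22 and 34 it was 59.1, 81.5, 66.4, 83.4 and 62.9 CPM. AHRfl 12 was the lowest mouse and AHRmKO 22 the highest, with the other 8 mixed. Its log2 fold change was 0.14 (95% interval -0.13 to 0.41, adjusted p = 0.874, exact permutation p = 0.341). *Pdp2*, the other phosphatase gene, was between 4.499 and 8.98 CPM in AHRfl and between 2.93 and 11.7 CPM in AHRmKO mice.

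Levels of different genes were compared per length, as CPM per kb of all annotated exon bases. *Pdk4* was the highest at 286 ± 78.2 CPM per kb (SD, n = 10), followed by *Pdha1* (170.2 ± 13.7) and *Pdk2* (156 ± 5.94). *Pdk4* was above *Pdha1* in 9 of 10 mice, the exception being AHRmKO 8, and *Pdha1* above *Pdk2* in 9 of 10, the exception being AHRmKO 34. Per longest transcript these counts were 8 and 6 of 10, and per coding length 8 and 10 of 10. Then came *Pdhb* (84.5 ± 5.34), *Dld* (71.4 ± 4.55) and *Dlat* (46.7 ± 4.38), and, lower, *Pdhx* (17.8 ± 0.949), *Pdp1* (14.9 ± 2.37), *Pdk1* (6.15 ± 0.638) and *Pdk3* (0.226 ± 0.0482). The ranges over the mice overlapped between the neighbours *Pdk4* and *Pdha1*, *Pdha1* and *Pdk2*, *Pdhb* and *Dld*, and *Pdhx* and *Pdp1*, and were apart for the other neighbours. The order of the means was the same per length of the longest transcript and per coding length, where *Pdp1* and *Pdk1* came close, at 37.6 and 36.8 CPM per kb. mRNA levels of the core genes were not in equal proportion, *Dlat* being 0.265 ± 0.00883 of *Pdha1* per kb in AHRfl and 0.283 ± 0.0134 in AHRmKO (SD, n = 5, groups overlapping).

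*Pdk4* and *Pdk2* made up nearly all kinase mRNA per kb. *Pdk4* took 65.3% ± 4.80 of the summed kinase level in AHRfl and 60.1% ± 8.45 in AHRmKO (SD, n = 5), and *Pdk2* 33.3% ± 4.61 and 38.3% ± 8.09. *Pdk1* took 1.34% ± 0.209 and 1.49% ± 0.425, and *Pdk3* 0.0521% ± 0.0116 and 0.0515% ± 0.0207. By this length *Pdk4* was the first kinase in 10 of 10 mice, from 52.8% in AHRmKO 22 to 70.8% in AHRmKO 19, and it was so per coding length, whereas per longest transcript it was first in 7, with *Pdk2* above it in AHRmKO 8, 22 and 34 and *Pdk4* shares from 44.4% to 63.4%. Per kb it stood at 1.64, 2.23, 1.52, 2.19 and 2.46 times *Pdk2* in AHRfl mice 11, 12, 13, 15 and 33 and at 1.204, 2.18, 2.52, 1.16 and 1.32 times in AHRmKO mice 8, 9, 19, 22 and 34. Since *Pdk2* hardly varied, the share of each mouse broadly followed its *Pdk4* level, though not in exact order. The share of AHRmKO 8, the mouse with the lowest *Pdk4* level, was 53.4%, above that of AHRmKO 22. The shares of AHRfl 11 and 13 (61.2% and 59.3%) and of AHRfl 12 and 15 (68.3% and 67.7%) also ran against their *Pdk4* levels. With other lengths the mean *Pdk4* share was between 57.4% and 66.3% in AHRfl and between 52.1% and 61.2% in AHRmKO. The mean *Pdk1* share was higher per coding length, at 2.86% in AHRfl and 3.20% in AHRmKO.

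**Figure D3:**
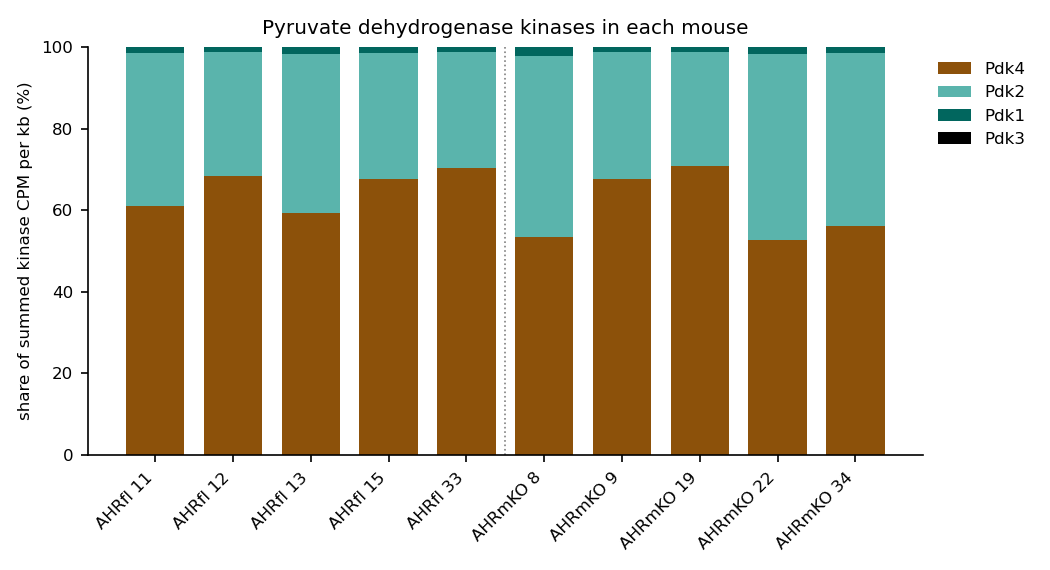
Bars show, for each mouse, the share of each kinase in the summed kinase CPM per kb, in percent, with AHRfl mice left and AHRmKO mice right of the dotted line. With the exon length used here *Pdk4* is the larger part in 10 of 10 mice, from 52.8% to 70.8% (in 7 of 10 per longest transcript), and *Pdk3*, at 0.0877% or less, is too small to be seen.

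The members also differed in how much they varied between mice of 1 genotype. *Pdk2* had an SD of 0.0576 log2 CPM within genotypes, which ranks it 174th from the steadiest of 14714 genes, and only 0.658% of the 152 genes at a like level (within 0.5 log2 CPM) varied less. *Pdhx* (SD 0.0777, percentile 4.77 of all genes), *Pdhb* (0.0974, percentile 11.95) and *Dld* (0.101, percentile 13.5) were also steady. *Pdha1*, *Dlat* and *Pdk1* lay between percentiles 24.2 and 35.9, and *Pdp1* at percentile 53.8, near the median SD of 0.209. Against genes at their own level, however, *Pdp1* varied more than 86.6%, *Pdk1* more than 73.7%, *Dlat* more than 60.2% and *Pdha1* more than 36.3%. By the same measure *Dld* varied more than 28.5%, *Pdhb* more than 22.7% and *Pdhx* more than 14.6%. *Pdk4* had the highest SD of the members at 0.406, percentile 78.8 of all genes and above 90.8% of the 65 genes at a like level. *Pdk3* (SD 0.295, percentile 65.0) varied less than most genes at its low level, where counting error is large, since only 8.62% of those varied less.

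Across the 10 mice, no relation of *Pdk4* with another member passed the test. Of its 9 correlations, Pearson's r of log2 CPM was between -0.28 (*Pdk2*) and 0.40 (*Pdhx*), and the lowest Benjamini-Hochberg adjusted p was 0.814 (permutation test). Spearman's rho was between -0.20 and 0.33, with no adjusted p below 0.973. Leaving out the 2 mice farthest from the median of *Pdk4*, AHRmKO 8 and AHRmKO 22, raised r for *Pdhb* to 0.69 and for *Dld* to 0.64 and lowered that for *Pdk2* to -0.54.

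*Pdha1*, the E1 alpha gene, was correlated with some of the other members. Among all 45 pairs of members, a family chosen after the data were seen, 3 had an adjusted p under 0.05 for Pearson's r (permutation test, n = 10). *Pdha1* and *Dld* had r = 0.87 (p = 0.00035, adjusted p = 0.0157) and rho = 0.88 (p = 0.00158, adjusted p = 0.0711). *Pdha1* and *Dlat* had r = 0.85 (p = 0.00216, adjusted p = 0.0349) and rho = 0.72 (p = 0.0235, adjusted p = 0.211), and *Pdha1* and *Pdk1* r = 0.85 (p = 0.00233, adjusted p = 0.0349) and rho = 0.79 (p = 0.00858, adjusted p = 0.129). No rho passed the adjustment. Many genes outside the complex were as close to *Pdha1*, since *Dld* ranked 194th of 14713 genes by r, *Dlat* 263rd and *Pdk1* 310th, and 1.32%, 1.79% and 2.11% of all genes had an r at least as high. The mice farthest from the median of *Pdha1* were AHRmKO 34 and AHRfl 12, and without them r was 0.73 for *Dld*, 0.57 for *Dlat* and 0.61 for *Pdk1*. These 2 mice had the highest fast fibre marker sums of their genotypes, 165794 and 165391 CPM, and the lowest TMM factors of the 10, 0.955 and 0.951. The part of fibre makeup in these relations was not tested. With library size alone in place of TMM, r was 0.94, 0.91 and 0.91. That scaling raised r of *Pdha1* with every other member too, for *Pdk2* from -0.25 to 0.52 and for *Pdhx* from 0.21 to 0.63, so the rise is not particular to these pairs.

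**Figure D4:**
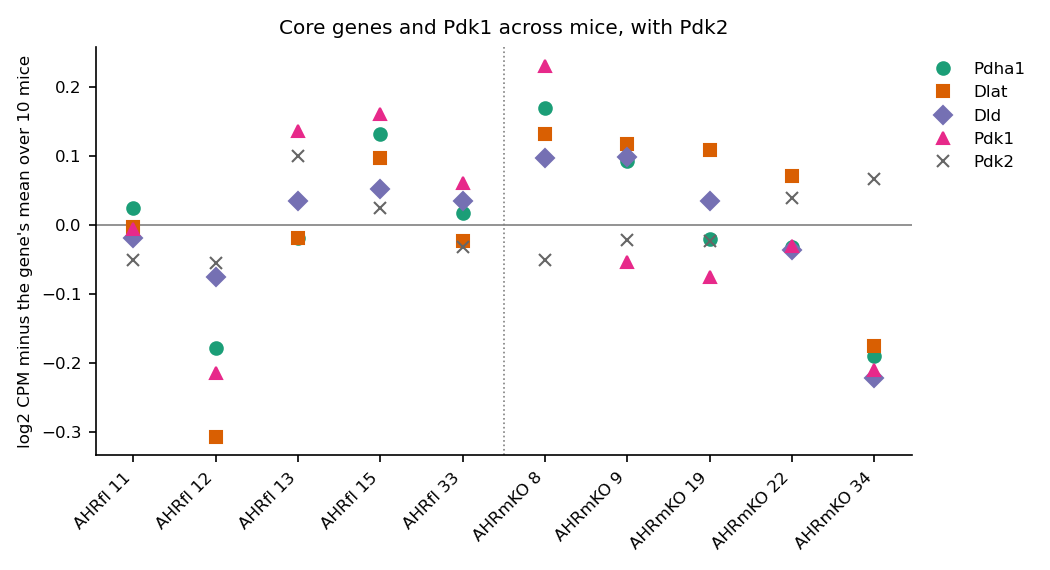
Each point is the log2 CPM of a gene in 1 mouse minus the mean of that gene over the 10 mice, with AHRfl mice left and AHRmKO mice right of the dotted line. *Pdha1*, *Dlat*, *Dld* and *Pdk1* are all at their lowest in AHRfl 12 and AHRmKO 34, whereas *Pdk2* (crosses) stays near 0 and is above it in AHRmKO 34.

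The slow fibre score, the mean log2 CPM of the 7 slow fibre markers, ran from 2.07 in AHRfl 12 to 7.94 in AHRmKO 8. Its correlation with the members, also examined after the data were seen, passed the adjustment for 0 of 10 (permutation test, lowest adjusted p = 0.284). The highest r were 0.64 for *Dlat* (p = 0.0401), 0.62 for *Pdk1* (p = 0.0599) and 0.57 for *Pdha1* (p = 0.0851), with rho of 0.47, 0.64 and 0.42. Leaving out AHRfl 12 and AHRmKO 8, whose scores lay farthest from the median, gave r of 0.25, 0.28 and 0.19. These 2 mice hold the lowest and the highest score. Leaving them out narrows the range of the score, which tends to lower r by itself. Whether the relation rested on them was therefore not tested. Over all 10 mice r was -0.23 for *Pdk4* and 0.04 for *Pdk2*.

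The genes whose pattern over the mice was most like that of a member were found by Pearson's r of log2 CPM centred within genotype over the 10 mice and 14713 other genes, as a description. For *Pdk4* the closest was *Angptl4* (r = 0.94), a secreted inhibitor of lipoprotein lipase and PPAR target, followed by *Ptger4* (0.92), *Cldn5* (0.90), *Mrps22* (0.90) and *Akr1e1* (0.89). *Angptl4* stood at 5.63, 5.83, 3.47, 9.30 and 10.2 CPM in AHRfl mice 11, 12, 13, 15 and 33 and at 3.02, 8.08, 14.0, 3.65 and 3.89 CPM in AHRmKO mice 8, 9, 19, 22 and 34. Both genes were highest in AHRmKO 19 and lowest in AHRmKO 8. The most opposed patterns were those of *Wdpcp* (r = -0.88) and *Ptpn14* (-0.88). For *Pdk1* the closest were *Myh10*, *Ppip5k1*, *Arhgdig*, *Alpk3* and *Lpgat1* (r from 0.96 to 0.97), and the most opposed *Fam81b* (-0.97) and *Trappc2* (-0.97). For the mean of the 5 core genes, against 14709 others, they were *Hsbp1l1*, *Agtr1a*, *Slc31a1*, *Mylip* and *Ptpn3* (r from 0.95 to 0.97), with *Ell2* (-0.96) and *Gm10638* (-0.95) at the other end. Some of these genes had few reads, with lowest counts of 6 for *Arhgdig*, 12 for *Fam81b* and 10 for *Hsbp1l1*, where counting error is large.

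**Figure D5:**
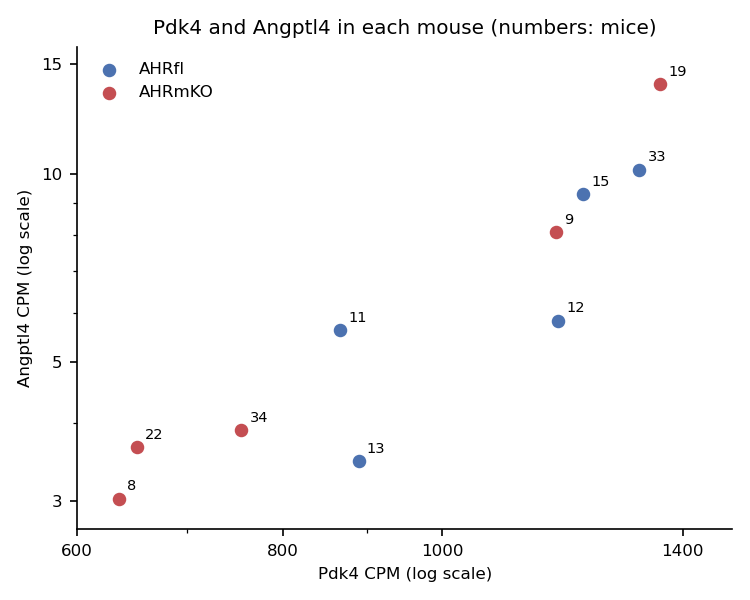
Each point is 1 mouse, named by its number, with *Pdk4* CPM on the horizontal and *Angptl4* CPM on the vertical axis, both logarithmic. Mice 8, 22 and 34 are low in both genes and mouse 19 is the highest in both, at 1356 and 14.0 CPM.

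Of 14 PPAR, FOXO1 and fasting targets of muscle, *Angptl4* was the 1 gene among the 100 most like *Pdk4*, and the median r of the list was 0.17 with 10 of 14 positive, beside a median of 0.0034 with 50.4% positive over all genes. Of the other lists, the median r with *Pdk4* was 0.28 (11 of 14 positive) for the sister dehydrogenases, lipoate and thiamine diphosphate. It was 0.15 (7 of 10) for HIF-1 targets, 0.14 (7 of 11) for pyruvate supply and complex accessories and 0.06 (6 of 9) for the other members. With *Pdk4*, *Acot2*, a mitochondrial acyl-CoA thioesterase, had r = 0.72, *Ucp3*, an uncoupling protein, 0.58, and *Trim63*, a muscle ubiquitin ligase, 0.49, while *Cpt1b*, the carnitine palmitoyltransferase of muscle, had -0.04. The 12 regulators reported for *Pdk4* transcription had a median r of -0.06 with it (4 of 12 positive). Of these, 0 were among the 100, and the highest r with *Pdk4* was that of *Klf15* at 0.35. *Pdp2* had r = 0.59 with *Pdk4*. For *Pdk1*, the 10 HIF-1 targets had a median r of -0.19 (4 of 10 positive), against 0.0229 over all genes. The PPAR, FOXO1 and fasting targets had 0.34 (9 of 14), but single genes ran from -0.65 (*Trim63*) to 0.91 (*Cpt1b*). The sister dehydrogenase list had 0.35 (10 of 14, from -0.54 to 0.93) and the other members 0.49 (7 of 9, from -0.27 to 0.87). Pyruvate supply had 0.12 (6 of 11) and the regulators 0.02 (6 of 12), but single genes of these lists ran from -0.87 to 0.86 and from -0.73 to 0.92. The HIF-1 targets ran from -0.81 to 0.74 with *Pdk1*. These correlations share the libraries and their scaling and are given without a test.

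In the genotype comparison, the same fit called none of the genes around the complex, with 0 past adjusted p = 0.05 in each of the lists that follow. Of 12 genes of pyruvate supply and complex accessories, 11 were tested (median log2 fold change -0.02), and the testis E1 alpha gene *Pdha2* was at 0 counts in 9 libraries and at 1 in the other. *Pcx*, which carboxylates pyruvate to oxaloacetate, had the lowest p of this list at 75.1 ± 10.2 CPM in AHRfl and 93.2 ± 8.01 CPM in AHRmKO (SD, n = 5), a log2 fold change of 0.31 (95% interval 0.11 to 0.51, adjusted p = 0.606), with overlapping groups. *Slc16a1*, a monocarboxylate transporter, followed at -0.20 (-0.40 to 0.01, adjusted p = 0.774), which was -0.12 without AHRmKO 9. The mitochondrial pyruvate carrier genes *Mpc1* and *Mpc2* had -0.05 (-0.19 to 0.09) and -0.06 (-0.22 to 0.09).

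Of 14 genes of the sister dehydrogenases, lipoate and thiamine diphosphate, which share E3 or cofactors with the complex, 7 were higher and 7 lower (median 0.00395), with *Bckdha* at 0.13 (adjusted p = 0.815) and *Lipt2* at -0.25 (adjusted p = 0.821) having the lowest p. Without AHRfl 12 *Bckdha* was 0.083, and without AHRmKO 8 *Lipt2* was -0.12. Among the 12 regulators reported for *Pdk4* transcription the median was -0.06. *Esrra*, an orphan nuclear receptor of mitochondrial genes, was 144 ± 8.40 and 129 ± 3.42 CPM (SD, n = 5), a log2 fold change of -0.15 (-0.28 to -0.03, adjusted p = 0.665), and *Ppargc1b*, a coactivator of it, had -0.39 (-0.89 to 0.10, adjusted p = 0.811), which was -0.19 without AHRfl 13. Of the 14 PPAR, FOXO1 and fasting targets, *Acot2* (-0.44, from -0.94 to 0.05, adjusted p = 0.787) and *Trim63* (-0.40, from -0.998 to 0.19, adjusted p = 0.826) had the lowest p, and *Trim63* was -0.18 without AHRfl 12. The median of this list was -0.01, and it went from -0.14 to 0.09 with single mice left out, so it has no stable sign. *Angptl4*, the gene closest to *Pdk4* across mice, had -0.08 (-1.15 to 0.99, adjusted p = 0.990).

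Of 10 HIF-1 targets related to *Pdk1*, 6 were higher and 4 lower (median 0.03). *Bnip3*, a mitophagy receptor, was between 240.2 and 283 CPM in AHRfl and between 210.4 and 238 CPM in AHRmKO, without overlap. Its log2 fold change was -0.19 (-0.32 to -0.05, adjusted p = 0.665, edgeR), and the exact permutation p of 0.00794 is the smallest that 5 against 5 mice can give. Of the 61 genes tested in these lists *Bnip3* was the 1 without overlap (1.64%), near the 1.4% over all genes. *Ankrd37*, a small ankyrin repeat gene, had 2.98 ± 0.784 and 1.86 ± 0.574 CPM (SD, n = 5), a log2 fold change of -0.68 (-1.17 to -0.19, adjusted p = 0.665). Of the 61 genes, 4 or 6.56% had an unadjusted p under 0.05, beside 6.61% over all genes, *Pcx* (higher) and *Esrra*, *Bnip3* and *Ankrd37* (lower).

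Of the markers of other cells in the muscle, all 27 gave counts in every library. Summed levels in AHRfl and AHRmKO mice were 8.84 to 57.9 and 6.82 to 56.6 CPM for 5 adipocyte markers, 101 to 161 and 115 to 205 CPM for 4 endothelial markers, and 8.38 to 14.5 and 7.16 to 17.2 CPM for 5 macrophage markers. They were 99.9 to 179 and 99.2 to 157 CPM for 4 fibroblast markers, 105 to 321 and 143 to 482 CPM for 5 erythroid markers, and 41.5 to 83.3 and 19.8 to 76.2 CPM for 4 Schwann cell markers. None of these lists had a gene past adjusted p = 0.05 or without overlap between genotypes. Their part in the member levels was not tested.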

How the data were processed

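The authors extracted RNA from gastrocnemius, sequenced poly(A)-selected paired-end libraries, used Trimmomatic 0.36 for trimming and STAR 2.5.2b for mapping to GRCm38, and counted uniquely mapped reads on exons with featureCounts. The deposited values are raw counts per Ensembl gene, 1 column per mouse, not normalized or pooled, and counting by strand is given as conditional on a stranded library, without saying whether these were. GENCODE M21 named 49056 of 49315 identifiers. Genes were kept by filterByExpr (minimum count 10, total 15), normalized by TMM and compared by the quasi-likelihood test of edgeR 4.0.16 (R 4.3.3, robust) without covariates, with Benjamini-Hochberg adjustment over 14714 genes and a threshold of 0.05. CPM carry the TMM scaling, with a prior count of 2 on the log2 scale. For single genes an exact permutation test (two-sided, 252 assignments) was added. Correlations over the 10 mice used 100000 resamples (Python 3.11.15, scipy 1.17.1).

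The members and gene lists were chosen with earlier results of these data known. Genes named from a list were its 2 with the lowest p, and those named as like *Pdk4*, *Pdk1* or the core mean were the 5 highest and 2 lowest r. *Pdp2*, *Pdha2*, *Mpc1*, *Mpc2*, *Ucp3*, *Cpt1b* and *Klf15* were named after their values were seen. Alternatives were DESeq2 1.42.0, limma-voom (limma 3.58.1), other scalings and filters, a slow fibre covariate, leaving out each mouse, and, added after seeing the data, an *Xist* covariate (more than 10 counts). The fits were tested on simulated data. Total counts were between 30393035 and 37954388, and none of the 45 pairs of libraries was identical. Reads carry no molecular identifiers, so the floor of 3 counts covers counting error only.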

Additional observations from a re-analysis of the deposited data

Results flagged for a closer look

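*Dlat* in AHRmKO mouse 34 lay apart from the other AHRmKO mice. It stood at 201 CPM against 239 to 249 CPM in the other 4. On the log2 CPM scale, the gap to the nearest of them was 0.802 of the range of the genotype, above the critical value of 0.710 for 5 samples. The 10 members in both genotypes make 20 groups, of which chance alone would mark about 1 in 20.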

How the results depend on the processing

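None of the 10 members had an adjusted p under 0.05 under the 10 other settings or with any of the 10 mice left out (adjusted p from 0.623 to 0.999). *Dlat*, *Pdhx*, *Pdk1*, *Pdk3*, *Pdk4* and *Pdp1* kept their sign in all of these, with *Pdk4* at -0.31 to -0.24 by setting and -0.44 to -0.15 by mouse left out. With mice left out *Pdk3* went from -0.36 (without AHRmKO 8) to -0.07 (without AHRmKO 22), *Pdp1* from 0.07 (without AHRfl 12) to 0.23 (without AHRfl 13), *Pdk1* from -0.12 (without AHRmKO 8) to -0.01 (without AHRmKO 34) and *Pdhx* from -0.07 to -0.02 (without AHRmKO 34), and with the slow fibre covariate *Pdk1* was -0.11 and *Dlat* 0.065. For 4 members near 0 the sign turned. With library size alone *Pdha1* was -0.0072 and *Pdk2* -0.014, with the slow fibre covariate *Pdha1* was -0.020, and with the *Xist* covariate *Dld* was 0.0028. Leaving out each mouse gave -0.0324 to 0.0562 for *Pdha1*, -0.0591 to 0.026 for *Pdhb*, -0.0326 to 0.0432 for *Dld* and -0.0122 to 0.0302 for *Pdk2*, and the cause was not tested. The median log2 fold changes of the lists lay near 0 and turned sign with single mice left out, from -0.0327 to 0.00782 for the members, -0.0585 to 0.0621 for pyruvate supply, -0.0169 to 0.0185 for the sister dehydrogenases, -0.104 to 0.0224 for the regulators, -0.14 to 0.0914 for the PPAR, FOXO1 and fasting targets and -0.0435 to 0.0633 for the HIF-1 targets. By setting the sign turned for pyruvate supply (-0.0335 to 0.0354), the sister dehydrogenases (-0.0143 to 0.00725), the PPAR, FOXO1 and fasting targets (-0.105 with the slow fibre covariate, 0.0672 with the *Xist* covariate) and the HIF-1 targets (-0.00842 to 0.027). The correlation of *Pdk4* turned sign with *Pdha1* (0.0137 centred, 0.114 by library size, 0.41 without AHRmKO 8 and 22), *Dlat* (0.0997, 0.0504 and 0.36) and *Pdk1* (0.19 without those mice). The count over all genes with an adjusted p under 0.05, 1 in the edgeR fit, was 21 by DESeq2, 5 without a filter, 2 with the slow fibre covariate and 1 to 6 with each mouse left out, 6 being without AHRmKO 34. Per coding length *Pdk1* was 2.86% and 3.20% of the kinases in AHRfl and AHRmKO. No paired analysis was possible because the animal numbers do not repeat between genotypes and the labels give no litters. With 13 to 29 counts, depth limits *Pdk3* alone among the members.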
